A study of Mus musculus with 36 samples.

Results

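The 10 genes described here are Mat1a, Mat2a, Gnmt, Bhmt, Cbs, Cth, Sds, Sdsl, Phgdh and Psat1, which act in methionine and serine metabolism of the liver. They were found by symbol among the 21889 gene symbols of the expression table, and all 10 were listed and passed the filter on low values. Livers of male mice (C57BL/6 in the labels, C57BL/6J in the study's methods) were profiled by RNA-Seq at 12 ages. Each group held 3 mice, each used at a single age. The ages were Day -2 (2 days before birth), Day 0 (collected before suckling), Day 1 (24 h after birth), Day 3 and Day 5, then Days 10, 15 and 20 before weaning and Days 25, 30, 45 and 60 after it. No mouse carried an allele or received an agent, the mice were weaned at 21 days, and the mice of an age came from several litters. Because RNA was isolated from liver tissue and not from sorted cells, fewer cells of a type and less RNA per cell cannot be told apart below.

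Methionine is turned into S-adenosylmethionine, the methyl donor of the cell, by methionine adenosyltransferase, whose catalytic subunit is encoded by Mat1a in the adult liver and by Mat2a in most other tissues and in fetal liver. Glycine N-methyltransferase, encoded by Gnmt, uses up surplus S-adenosylmethionine, and the homocysteine that remains after methyl transfer is either methylated back to methionine with betaine, by the product of Bhmt, or sent through transsulfuration to cysteine by the products of Cbs and Cth. Transsulfuration uses serine. Serine is made from a glycolytic intermediate by a pathway that begins with the enzymes encoded by Phgdh and Psat1, and is broken down to pyruvate and ammonia by serine dehydratase, encoded by Sds, with Sdsl encoding a related enzyme.

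Promoter sequences, the 250 bases before a transcription start, are shown for genes with opposed courses over age. Phgdh, Psat1 and Mat2a had their highest mean before birth and Gnmt had its highest mean at Day 60. They come from RefSeq (build GRCm38.p6), where 6 of the 10 genes were matched with 7 promoters; Mat1a, Cth, Sds and Sdsl had no entry. Each is on the minus strand and written 5' to 3', with the letters CCAAT, or ATTGG where the motif lies on the other strand, in capitals. The regions are chr3:98339970-98340219 for Phgdh, chr19:15925060-15925309 for the first promoter of Psat1, chr6:72439557-72439806 for Mat2a and chr17:46729166-46729415 for Gnmt.
Phgdh: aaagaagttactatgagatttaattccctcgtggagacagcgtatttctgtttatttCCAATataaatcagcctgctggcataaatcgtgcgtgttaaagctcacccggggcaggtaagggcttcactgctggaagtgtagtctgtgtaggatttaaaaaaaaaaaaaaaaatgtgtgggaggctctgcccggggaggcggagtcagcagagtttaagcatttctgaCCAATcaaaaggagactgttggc
Psat1: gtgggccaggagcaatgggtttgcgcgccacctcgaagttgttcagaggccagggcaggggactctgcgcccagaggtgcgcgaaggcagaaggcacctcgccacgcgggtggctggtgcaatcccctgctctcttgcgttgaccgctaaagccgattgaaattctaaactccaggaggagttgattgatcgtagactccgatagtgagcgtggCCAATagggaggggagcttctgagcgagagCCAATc
Mat2a: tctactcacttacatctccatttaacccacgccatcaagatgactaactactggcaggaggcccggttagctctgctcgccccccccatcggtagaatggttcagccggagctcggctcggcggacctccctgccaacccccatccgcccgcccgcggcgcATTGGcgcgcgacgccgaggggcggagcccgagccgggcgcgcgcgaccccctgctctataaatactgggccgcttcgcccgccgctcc
Gnmt: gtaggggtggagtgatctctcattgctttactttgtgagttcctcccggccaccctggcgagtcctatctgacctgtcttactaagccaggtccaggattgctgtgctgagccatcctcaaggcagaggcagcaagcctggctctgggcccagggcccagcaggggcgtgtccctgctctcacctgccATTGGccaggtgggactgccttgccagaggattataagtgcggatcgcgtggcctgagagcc
CCAAT was present on either strand in 6 of the 7 promoters, with 2 copies in Phgdh, 2 in the first promoter of Psat1, 2 in Cbs and 1 each in Mat2a, Bhmt and Gnmt, whereas 33.9% of all 32851 promoters of this length held it. Genes that fell with age and genes that rose with age both had it. GGGCGG was found in 3 of the 7 promoters (32.7% of all), TATAAA in 2 (12.4% of all) and TGATGNAA, a composite element of C/EBP and ATF factors, in none (3.45% of all). Both strands were searched for every motif. The Mat2a promoter held 29 CpG dinucleotides, more than 93.2% of promoters, against a median of 6 over all and 7 in that of Phgdh.

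Levels are given as FPKM, fragments per length of transcript and per mapped fragments of the library, which are scaled by length and so can be set side by side between genes. Differences are on the log2(FPKM + 1) scale with the standard error (SE) of a limma fit over all 36 libraries. A gene was called changed where its Benjamini-Hochberg adjusted p, over the 11149 genes tested, was under 0.05. Summed FPKM was between 353712 and 450597 per library, and libraries of the same age correlated across genes with r of at least 0.971. All 8 hepatocyte markers were listed in every age, their summed level being 11380 to 12080 FPKM at Day -2 and 69590 to 81300 FPKM at Day 0. All 10 genes differed from Day 60 in at least 1 age, with the adjustment taken over genes and the 11 comparisons together, as did 90.7% of all genes tested. Between Day -2 and Day 60 all 10 differed, against 75.1% of all genes. Mat2a, Phgdh and Psat1 were higher before birth, as were 56.4% of all genes, and the other 7 were lower, as were 18.6%. The log2 differences of those not given below were -5.73 ± 0.67 for Sds, -4.59 ± 0.31 for Gnmt, -3.72 ± 0.29 for Bhmt, -3.59 ± 0.30 for Mat1a and -1.51 ± 0.36 for Sdsl (SE), with adjusted p of at most 0.000381 (limma).

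**Figure D1:**
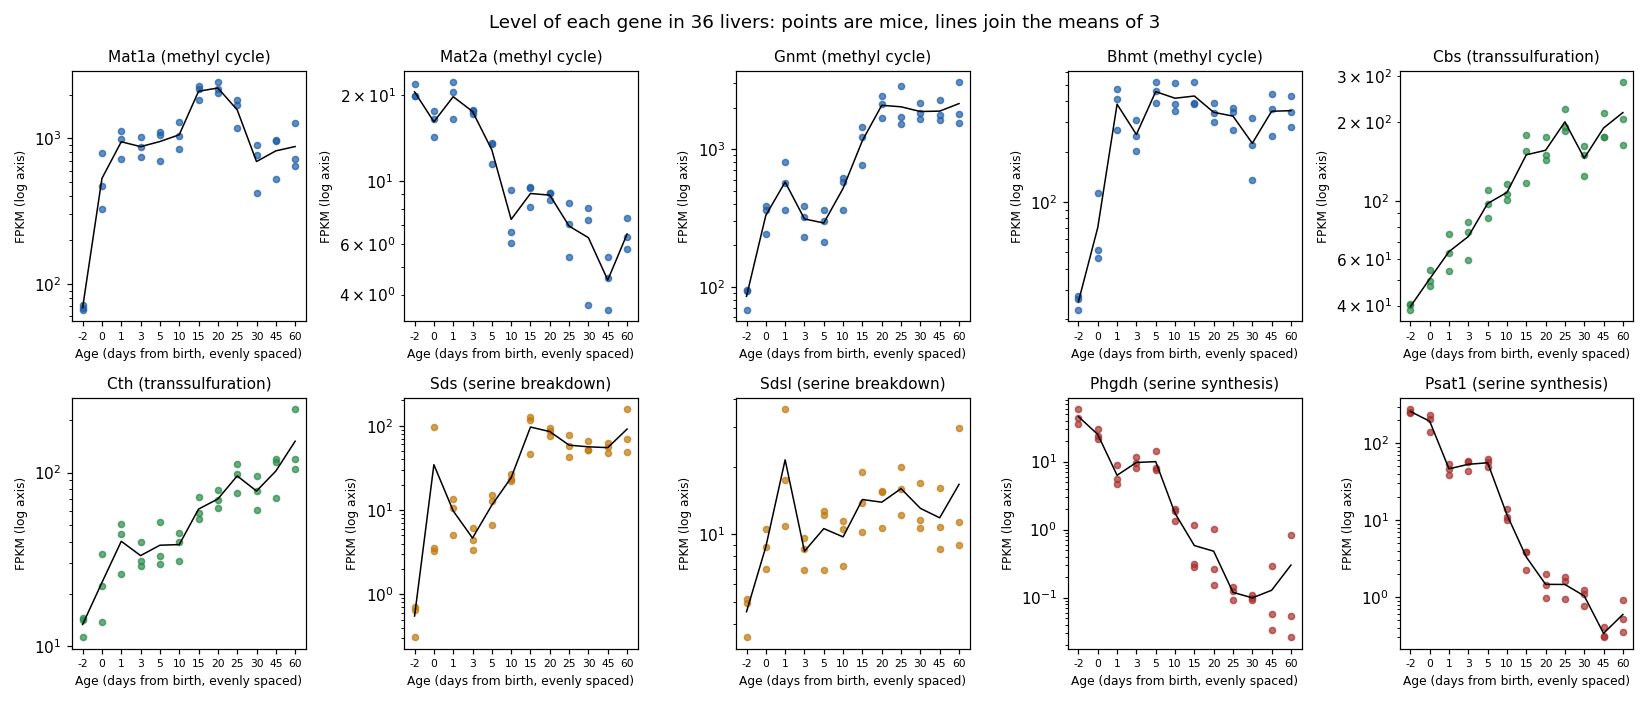
FPKM (log axis) of the 10 genes against age in days, ages evenly spaced, in 36 livers; points are mice and lines join the means of 3. Mat1a, Gnmt, Bhmt, Cbs, Cth, Sds and Sdsl have their lowest mean at Day -2, whereas Mat2a, Phgdh and Psat1 have their highest mean there. For Mat2a the mice of Day -2 and Day 1 overlap.

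Mat1a, which encodes the liver form of methionine adenosyltransferase (chr14:41918670-41937701, mm9, plus strand), rose at birth, rose again between Days 10 and 15 and fell after weaning. It was at 71.8, 66.1 and 68.4 FPKM in the 3 mice of Day -2 and at 799, 326 and 469 FPKM in those of Day 0. The groups did not overlap, and the lowest newborn was well above every fetus. The difference was 2.83 ± 0.30 (SE; adjusted p = 1.43e-08, limma). By Day 15 the mice were at 1842, 2194 and 2286 FPKM, and Day 20, at 2220 ± 197 FPKM (SD, n = 3), was the highest mean of any age. The rise from Day 10 to Day 15 was 1.01 ± 0.30 (SE; adjusted p = 0.0263, limma), with every mouse of Day 15 above every mouse of Day 10. The call was lost without each of Day 10 replicates 1 and 3 and Day 15 replicates 2 and 3, with an adjusted p up to 0.115. Values were 1701, 1174 and 1839 FPKM at Day 25 and 418, 767 and 895 FPKM at Day 30. These groups also stood apart, and Mat1a fell by 1.23 on the log2 scale from Day 25 to Day 30 (SE 0.30, adjusted p = 0.0271, limma). Mat1a was the 1 gene of the set called at that step, where 1.64% of all genes were called. The call was lost without Day 25 replicate 1, Day 25 replicate 3 or Day 30 replicate 1 (adjusted p of 0.119, 0.202 and 0.232), and without the filter (0.0615).

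Mat2a, the form used outside the adult liver (chr6:72382793-72389552, mm9, minus strand), fell with age over a smaller range, and at each step where Mat1a was called Mat2a was not. The 3 mice of Day -2 were at 19.9, 21.8 and 19.8 FPKM. Means were 16.1, 19.7 and 17.5 FPKM at Days 0, 1 and 3, and the mice of Day 1 overlapped those of Day -2. Mice of Day 5 were at 11.5, 13.5 and 13.6 FPKM, those of Day 10 at 9.32, 6.64 and 6.05 FPKM, and those of Day 45, the lowest age, at 4.57, 5.40 and 3.53 FPKM. From Day 5 to Day 10 the groups did not overlap and Mat2a fell by 0.75 on the log2 scale (SE 0.18, adjusted p = 0.00223, limma). When libraries were scaled to a common upper quartile the same step gave -0.33 with an adjusted p of 0.145. Mat2a was higher at Day -2 than at Day 60 by 1.52 ± 0.18 (SE; adjusted p = 1.91e-08, limma), or by 0.96 with the upper quartile scaling, and was above Day 60 at each of the 5 ages up to Day 5. The ordered means of Mat2a formed 11 neighbouring pairs, of which 2 were separate in every mouse.

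The balance of the pair moved further than either gene. The ratio of Mat1a to Mat2a in FPKM was 3.37 at Day -2 (3.03 to 3.61 over the 3 mice), 32.7 at Day 0 (19.7 to 45.3), 73.5 at Day 5, 149 at Day 10 and 249 at Day 20 (226 to 267). Mat1a transcripts therefore outnumbered those of Mat2a at every age, before birth included. After weaning the ratio was 226 at Day 25, 111 at Day 30 (95.7 to 123) and 140 at Day 60 (96.6 to 221). The range of Day 30 lay below that of Day 25, 218 to 241. No p was computed for ratios.

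**Figure D2:**
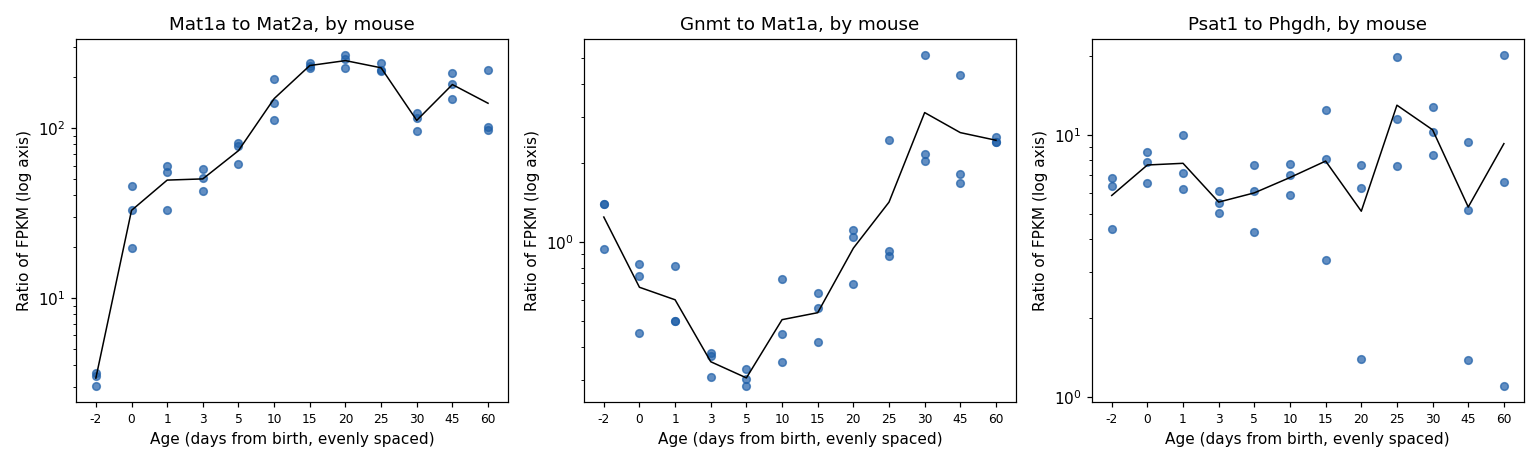
Ratios of FPKM (log axis) against age in days, ages evenly spaced, for 3 gene pairs; points are mice and lines join the means of 3. Mat1a to Mat2a climbs from 3.37 at Day -2 to 249 at Day 20, Gnmt to Mat1a dips to 0.304 at Day 5 and reaches 3.11 at Day 30, and the mean Psat1 to Phgdh ratio lies between 5.11 and 12.9 while single mice of Day 60 range from 1.11 to 20.04.

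Gnmt (chr17:46862613-46866117, mm9, minus strand) rose at birth, rose again from Day 5 to Day 15, had a higher mean at Day 20 and then stayed high. It was at 67.7, 92.5 and 95.3 FPKM at Day -2 and at 362, 242 and 386 FPKM at Day 0, with no overlap and a difference of 1.93 ± 0.31 (SE; adjusted p = 8.98e-06, limma). Mice of Day 1 were at 566, 362 and 800 FPKM and those of Day 3 at 228.5, 384 and 320 FPKM. Neither the step up to Day 1 nor the step down to Day 3 was called (adjusted p = 0.0601 and 0.0755, limma). The 3 mice of Day 5 were at 210, 299 and 362 FPKM, below or within the range of Day 0. Gnmt then rose from Day 5 to Day 10 by 0.83 ± 0.31 (SE; adjusted p = 0.0355, limma) and from Day 10 to Day 15 by 1.14 ± 0.31 (SE; adjusted p = 0.0129, limma). Mice of Day 15 were at 769.5, 1230 and 1458 FPKM and those of Day 20 at 1680, 2133 and 2423 FPKM. Every mouse of Day 20 was above every mouse of Day 15, a difference of 0.88 that was not called (SE 0.31, adjusted p = 0.195, limma). Mice of Day 60, with the highest mean, were at 1553, 1802 and 3061 FPKM. Means from Day 20 on, 1874 to 2139 FPKM, did not separate between neighbours in the order of levels. The steps from Day 5 to Day 10 and from Day 10 to Day 15 each lost their call when some single libraries of the compared ages were left out (adjusted p up to 0.169 and 0.0932). Per transcript, Gnmt was at 0.304 of Mat1a at Day 5, 0.948 at Day 20 and 3.11 at Day 30. The Gm16736 gene lies within the same region on the opposite strand, and reads of the 2 cannot be told apart where strand was not used.

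Bhmt, the betaine-dependent route back to methionine (chr13:94386846-94407916, mm9, minus strand), had its largest step in the first day of life. Values were 22.6, 27.4 and 26.2 FPKM at Day -2, 113, 52.0 and 46.1 FPKM at Day 0 and 413, 268 and 473 FPKM at Day 1. The 3 ages did not overlap. The step to Day 0 was 1.32 ± 0.29 (SE; adjusted p = 0.000448, limma) and that to Day 1 was 2.51 ± 0.29 (SE; adjusted p = 2.11e-07, limma). From Day 1 on the means stayed between 225 and 458 FPKM, and no age from Day 1 to Day 45 was called different from Day 60. Its neighbour Bhmt2, a related gene that lies 17758 bases away, was at a similar level at Day -2, with a Bhmt to Bhmt2 ratio of 1.06. The ratio was 4.99 at Day 1 and 4.66 at Day 60. Whether reads were shared between the 2 genes was not examined, and Gm15622 overlaps Bhmt on the opposite strand.

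Cbs and Cth, the 2 transsulfuration enzymes, rose gradually. Cbs, cystathionine beta-synthase (chr17:31749568-31774144, mm9, minus strand), was at 40.1, 38.5 and 40.4 FPKM at Day -2 and at 163, 205 and 284 FPKM at Day 60. It was lower at Day -2 than at Day 60 by a log2 difference of -2.39 ± 0.17 (SE; adjusted p = 3.82e-13, limma). None of the 11 steps between consecutive ages was called for Cbs in the limma fit. Rises from Day 3 to 5, 10 to 15, 20 to 25 and 30 to 45 had an unadjusted p under 0.05. So did a fall from Day 25 to 30, with a log2 difference of -0.46 and every mouse of Day 30 below every mouse of Day 25. Cth, cystathionine gamma-lyase (chr3:157557212-157588041, mm9, minus strand), was at 11.3, 14.2 and 14.7 FPKM at Day -2, 33.96, 22.2 and 13.8 FPKM at Day 0, 50.4, 26.2 and 44.2 FPKM at Day 1 and 105, 119 and 231 FPKM at Day 60. The mice of Day 0 spread over the range from the fetuses to the Day 1 pups. The step from Day 0 to Day 1, 0.80 ± 0.30 (SE; adjusted p = 0.0400, limma), became 0.48 with an adjusted p of 0.273 without Day 0 replicate 3, a library in which 10 exocrine pancreas markers summed to 7817 FPKM. The call was also lost without Day 0 replicate 2, Day 1 replicate 1 or Day 1 replicate 3 (adjusted p of 0.079, 0.19 and 0.102), without the filter and with the upper quartile scaling (0.0579 and 0.0956). Cth was lower at Day -2 than at Day 60 by a log2 difference of -3.32 ± 0.30 (SE; adjusted p = 3.68e-11, limma). The ratio of Cbs to Cth was 3.01 at Day -2 and 1.51 at Day 60, with per-mouse ranges of 2.72 to 3.55 and 1.23 to 1.73.

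Sds, the serine-degrading enzyme (chr5:120926540-120933941, mm9, plus strand), had the widest rise of the set. The fetuses were at 0.309, 0.645 and 0.705 FPKM and the mice of Day 0 at 96.6, 3.28 and 3.57 FPKM. Day 0 replicate 1 was thus far above the other two mice of its age, and it was also the highest of Day 0 for Mat1a, Bhmt and Cth. In that library the 8 skeletal muscle markers summed to 1298 FPKM, against 4.101 and 4.603 FPKM in the other two, and their part in the result was not tested. The rise from Day -2 to Day 0 was 3.01 ± 0.67 (SE; adjusted p = 0.000457, limma) with that library and 1.52 without it (adjusted p = 0.00317). Mice of Day 3 were at 3.39, 6.10 and 4.46 FPKM, those of Day 10 at 23.5, 22.1 and 27 FPKM and those of Day 15 at 46.1, 117 and 126 FPKM. Day 10 was separate from every earlier age from Day -2 to Day 5 except for Day 0 replicate 1. At Day 60 the mice were at 48.6, 69.0 and 156 FPKM, the last being the mouse in which Gnmt, Cbs, Cth, Mat1a and Sdsl were also highest of that age. The genes Plbd2 and Gm15690 overlap Sds on the opposite strand.

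Sdsl (chr5:120908195-120922819, mm9, minus strand) lies 3720 bases from Sds in head-to-head orientation and had a different course. It was at 3.47, 5.12 and 4.95 FPKM at Day -2, 10.5, 7.03 and 8.81 FPKM at Day 0, 17.5, 10.9 and 36.02 FPKM at Day 1 and 6.96, 8.62 and 9.62 FPKM at Day 3. Day 1 held the highest mean, and no mouse of that age overlapped Day 0 or Day 3. The step up was 1.05 ± 0.36 (SE; adjusted p = 0.0252, limma) and the step down was -1.11 ± 0.36 (SE; adjusted p = 0.0405, limma). Without Day 1 replicate 3 they were 0.61 and -0.67, with adjusted p of 0.182 and 0.342. The rise was also lost without Day 0 replicate 2 or 3 or Day 1 replicate 1 and with the upper quartile scaling (adjusted p of 0.0916, 0.0665, 0.0501 and 0.0786). The fall was also lost without Day 1 replicate 1 or any mouse of Day 3, without the filter and with a pseudocount of 0.1 (adjusted p of 0.0504 to 0.118). The fall was the 1 call of the set from Day 1 to Day 3, where 11.3% of all genes were called. Sdsl differed from Day 60 at Day -2 alone. The ratio of Sds to Sdsl was 0.119 at Day -2, 6.56 at Day 15 and 5.59 at Day 60.

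Phgdh and Psat1, the first enzymes of serine synthesis, were the genes that fell most. Phgdh (chr3:98117093-98143913, mm9, minus strand) was at 35.9, 58.3 and 43.0 FPKM at Day -2, 21.1, 29.9 and 23.98 FPKM at Day 0, 4.62, 8.75 and 5.45 FPKM at Day 1 and 7.99, 14.5 and 7.42 FPKM at Day 5. It held a plateau between Days 1 and 5. It was then at 1.32, 2.01 and 1.86 FPKM at Day 10, and at 0.0919, 0.125 and 0.141 FPKM at Day 25. The falls at 4 steps were called, each with an SE of 0.26. The log2 difference was -0.83 from Day -2 to Day 0 (adjusted p = 0.0081, limma), -1.86 from Day 0 to Day 1 (adjusted p = 3.14e-06), -1.96 from Day 5 to Day 10 (adjusted p = 9.38e-07) and -0.82 from Day 10 to Day 15 (adjusted p = 0.0327). The fall from Day -2 to Day 0 had an adjusted p of 0.0871 with the upper quartile scaling, 0.195 with a pseudocount of 0.1 and 0.0588 without Day -2 replicate 2. The fall from Day 10 to Day 15 was -1.64 with that pseudocount. Its call was lost without Day 10 replicate 2 or 3 or Day 15 replicate 1 or 2 (adjusted p of 0.124, 0.0919, 0.104 and 0.197, limma). The same call was lost without the filter and with the upper quartile scaling (0.0554 and 0.0646).

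Psat1 (chr19:15979168-16021827, mm9, minus strand), which acts on the product of the Phgdh enzyme, also fell with age and was at a higher mean level than Phgdh at every age. It was at 245, 256 and 275 FPKM at Day -2, 138, 235 and 206 FPKM at Day 0, 46.1, 54.2 and 39.1 FPKM at Day 1, 48.9, 61.6 and 56.7 FPKM at Day 5, 10.2, 14.1 and 11.01 FPKM at Day 10 and 0.404, 0.311 and 0.301 FPKM at Day 45. Psat1 was called from Day 0 to Day 1, Day 5 to Day 10, Day 10 to Day 15 and Day 15 to Day 20, with no overlap between the mice compared. The mice were also separate from Day -2 to Day 0 and from Day 30 to Day 45, with differences of -0.45 and -0.60 that were not called. The log2 differences at the called steps were -2.01 (adjusted p = 7.91e-09, limma), -2.16 (adjusted p = 1.71e-09), -1.57 (adjusted p = 1.54e-06) and -0.81 (adjusted p = 0.0233), each with an SE of 0.20. It was the 1 gene of the set called from Day 15 to Day 20, where 1.99% of all genes were called, and that call was lost without any 1 of Day 15 replicates 1 and 3 and Day 20 replicates 2 and 3 (adjusted p of 0.183, 0.131, 0.0902 and 0.258). From Day -2 to Day 60 the difference was 7.36 ± 0.20 for Psat1 and 5.19 ± 0.26 for Phgdh (SE; adjusted p = 4.66e-23 and 6.06e-17, limma). The mean ratio of Psat1 to Phgdh was between 5.11 and 12.9 over the 12 ages. Single mice were at 7.66, 1.40 and 6.28 at Day 20, at 1.38, 9.36 and 5.17 at Day 45 and at 1.11, 6.59 and 20.04 at Day 60. These late means thus rest on widely spread mice. With 1 FPKM added to each gene, the mean log2 ratio was 2.50 at Day -2 and 0.33 at Day 60. A pseudogene, Gm3329, overlaps Psat1 on the opposite strand.

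Markers of some other cell types were also lower at Day 60 than at Day -2. The summed level of 8 erythroid markers lay between 127300 and 185200 FPKM at Day -2, between 21490 and 33590 FPKM at Day 1, between 4176 and 18680 FPKM at Day 10 and between 651 and 716 FPKM at Day 60. The 6 neutrophil and myeloid precursor markers summed to between 999 and 1652 FPKM at Day -2, between 1978 and 2174 FPKM at Day 0 and between 0.148 and 0.937 FPKM at Day 60. The 5 proliferation markers summed to between 187 and 238 FPKM at Day -2 and to between 0.642 and 1.10 FPKM at Day 60. Mat2a was also lower at Day 60 than at Day -2, and the part of these sums in the falls was not tested. Other lists took other courses. The 4 endothelial markers summed to between 21.8 and 34.8 FPKM at Day -2, between 70.4 and 85.3 FPKM at Day 5 and between 44.0 and 54.3 FPKM at Day 60. Median sums were highest at Day 5 for the Kupffer cell and biliary lists and at Day 10 for the stellate list. The summed hepatocyte markers rose at birth with Mat1a, Gnmt and Sds, and their part in those rises was not tested either.

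Late Phgdh values also differed between mice of an age. At Day 15 they were 0.312, 0.280 and 1.152 FPKM, at Day 20 0.260, 1.03 and 0.155 FPKM, at Day 45 0.292, 0.0333 and 0.0582 FPKM and at Day 60 0.820, 0.0543 and 0.0260 FPKM. In each of these ages 1 mouse was far above the others. In the same 4 libraries the 10 exocrine pancreas markers summed to 6629, 9121, 5718 and 25740 FPKM, while the other libraries of those ages held 623 FPKM or less. The part of this signal in the Phgdh values was not tested. Psat1 was highest in the same mouse at Days 45 and 60, at 0.404 and 0.908 FPKM, but not at Day 15, and not at Day 20, where that mouse had 1.44 FPKM and another 1.99 FPKM. From the smallest steps between low values, about 78.4 fragments (in units of 1000000) lay behind each library, and Phgdh then rested on roughly 4.87 to 156 fragments per library at Day 60. These steps are approximate, since 61.3% of low values fell within 0.1 of a whole number.

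**Figure D3:**
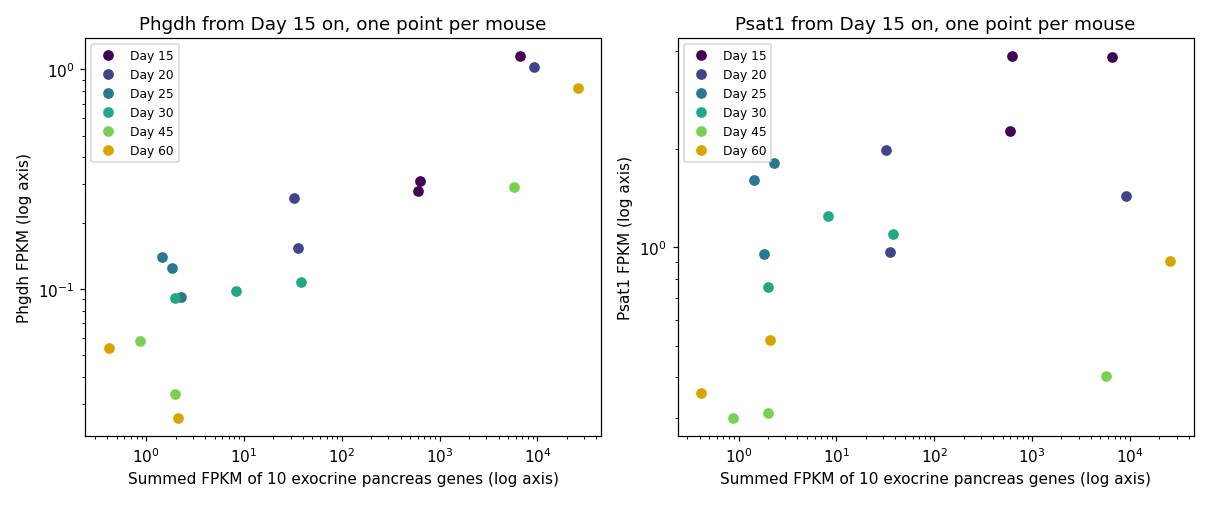
Phgdh and Psat1 FPKM in each mouse from Day 15 on (log axis) against the summed FPKM of 10 exocrine pancreas genes (log axis), coloured by age. The 4 libraries with over 5000 FPKM of pancreas genes hold Phgdh at 0.292 to 1.152 FPKM, the highest of each age; Psat1 is the highest of its age in those of Days 45 and 60 but not in those of Days 15 and 20.

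From Day -2 to Day 0, 5 of 10 genes were called, against 54.6% of all genes: Mat1a, Gnmt, Bhmt and Sds rose, where 13.1% of all genes rose, and Phgdh fell, where 41.4% of all fell. A common upper quartile moved the median of all genes from -0.291 to -0.083. With it the split was 7 higher and 0 lower, where 20.1% of all genes rose and 26% fell. Cbs, Cth and Sdsl joined the 4 that rose, and Phgdh was no longer called. From Day 0 to Day 1, 6 were called, against 31.6% of all genes. Mat1a, Bhmt, Cth and Sdsl rose, where 23.7% of all genes rose, and Phgdh and Psat1 fell, where 7.88% fell. Here the upper quartile scaling left 2 higher, Mat1a and Bhmt, and the same 2 lower, where 14.7% of all genes rose and 12% fell. The increase of Mat1a over this step was 0.91 ± 0.30 (SE, adjusted p = 0.0237, limma). Its call was lost without Day 0 replicate 2 or 3 or Day 1 replicate 1 or 3 (adjusted p of 0.163, 0.079, 0.110 and 0.0545, limma).

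From Day 3 to Day 5 no gene of the set was called in the limma fit (Mat2a, Bhmt and Cbs, 3 genes, had an unadjusted p under 0.05), against 3.2% of all genes. From Day 5 to Day 10, 4 were called, Gnmt upward and Mat2a, Phgdh and Psat1 downward, against 36.3% of all genes (1.88% upward and 34.4% downward). From Day 10 to Day 15, 4 were called, Mat1a and Gnmt upward and Phgdh and Psat1 downward, against 12% of all genes (1.52% upward and 10.5% downward). From Day 30 to Day 45 and from Day 45 to Day 60 the limma fit called 0 genes of the set, with 3 and 1 at an unadjusted p under 0.05, against 1.03% and 0.233% of all genes.

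**Figure D4:**
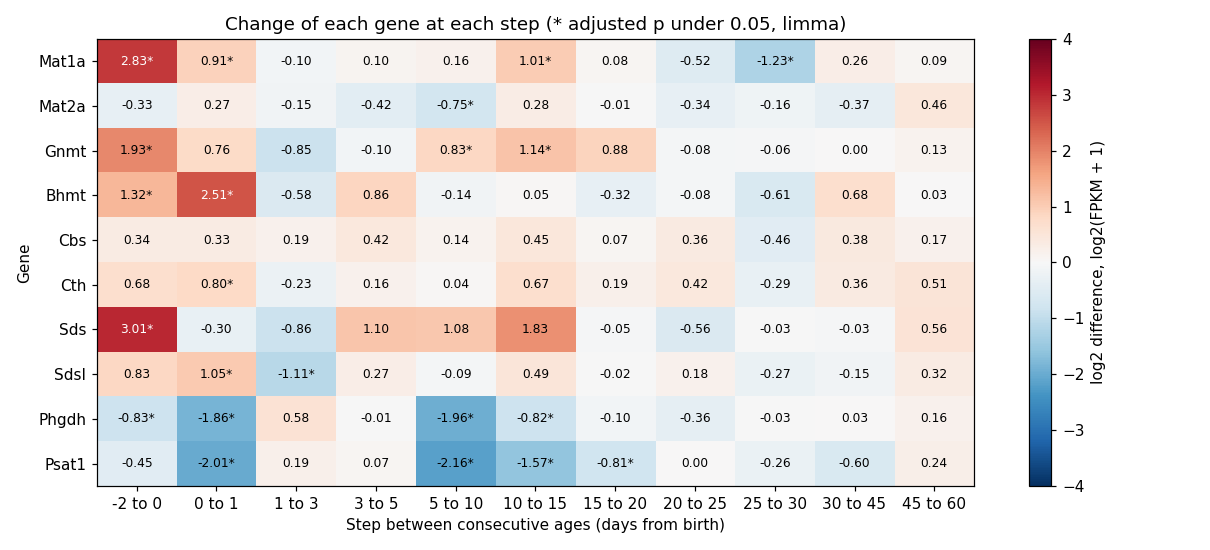
Log2 difference, on the log2(FPKM + 1) scale, of each gene (rows) at each step between consecutive ages (columns, in days from birth); red is higher and blue lower at the later age, and an asterisk marks an adjusted p under 0.05 by limma. Calls lie mostly at the steps from Day -2 to Day 1 and from Day 5 to Day 15, and none lies at the step across weaning, Day 20 to Day 25.

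Weaning, at 21 days, lay between the mice of Day 20 and those of Day 25. Across this step 0 of the 10 genes passed the limma test (Cbs, 1 gene, had an unadjusted p under 0.05), against 7.19% of all genes. Cbs was at 176, 143 and 150 FPKM at Day 20 and at 186, 225 and 191 FPKM at Day 25, a difference of 0.36 ± 0.17 (SE; adjusted p = 0.256, limma). Mat1a differed by -0.52 ± 0.30 and Mat2a by -0.34 ± 0.18 (SE; adjusted p = 0.373 and 0.336, limma), with every mouse of Day 25 below every mouse of Day 20 for both. Gnmt and Bhmt each differed by -0.08 and Psat1 by 0.00.

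Over the longer span, the 6 ages from Day 1 to Day 20 were set against the 4 from Day 25 to Day 60, and 9 of the 10 genes were called, against 79.7% of all genes. Psat1 was higher before weaning by 3.18 ± 0.09, Phgdh by 1.84 ± 0.12 and Mat2a by 0.89 ± 0.08 (SE; adjusted p = 1.36e-22, 2.22e-14 and 1.22e-10, limma). Phgdh was at 3.55 with a pseudocount of 0.1 and Mat2a at 0.52 with the upper quartile scaling. Gnmt was lower before weaning by a log2 difference of -1.65 ± 0.14, Sds by -1.47 ± 0.30, Cth by -1.16 ± 0.14 and Cbs by -0.85 ± 0.08 (SE; adjusted p = 1.38e-11, 7.54e-05, 7.58e-09 and 7.78e-11, limma). These are averages over ages and did not hold at each age. Sds peaked before weaning, its highest mean of any age (96.4 FPKM) being that of Day 15. Its Day 20 mean (85.2 FPKM) also exceeded those of Days 25, 30 and 45 (58.8, 56.2 and 54.9 FPKM), though not that of Day 60 (91.2 FPKM). Mice of neighbouring ages in this order overlapped. Mean Gnmt of Day 20 (2079 FPKM) lay within the range of the later means, 1874 to 2139 FPKM. Mat1a was higher before weaning by 0.45 ± 0.14 (adjusted p = 0.00393, limma) and Bhmt by 0.30 ± 0.13 (adjusted p = 0.0404). Neither was far from the median of all genes, 0.386, and with the upper quartile scaling they were at 0.04 and -0.11, with adjusted p of 0.784 and 0.456. The Bhmt call was also lost without any of several single libraries, with an adjusted p up to 0.116 without Day 30 replicate 1. Sdsl differed by -0.16 ± 0.16 (SE, adjusted p = 0.370, limma) and by -0.54 with that scaling (adjusted p = 0.00749). The split thus went from 5 higher and 4 lower (68.1% and 11.7% of all genes) to 3 higher and 5 lower (45.3% and 25.8% of all genes).

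Other genes of the same pathways numbered 76 on 6 lists, of which 72 passed the filter on low values. From Day -2 to Day 0, 17 rose and 33 fell, where 13.1% of all genes rose and 41.4% fell. From Day 0 to Day 1, 19 rose and 15 fell, where 23.7% of all genes rose and 7.88% fell. Across weaning, 6 rose and 5 fell, where 3.94% of all genes rose and 3.26% fell. At Days 1 to 20, 37 were higher and 15 lower than at Days 25 to 60, where 68.1% of all genes were higher and 11.7% lower. These splits moved with the scaling. With a common upper quartile they were 25 higher and 24 lower from Day -2 to Day 0 (20.1% and 26% of all genes). From Day 0 to Day 1 they were 18 and 17 (14.7% and 12% of all genes). Across weaning they were 7 and 6 (5.15% and 4.76% of all genes). Before weaning against after they were 23 higher and 35 lower (45.3% and 25.8% of all genes). The medians of these 72 genes were -0.206, 0.170, -0.056 and 0.216, beside -0.291, 0.189, -0.065 and 0.386 over all genes. Psph, which encodes the last enzyme of serine synthesis and is named after its values were seen, fell by 1.39 from Day -2 to Day 0 and fell by 1.19 from Day 0 to Day 1 on the log2 scale (adjusted p = 3.12e-07 and 1.08e-05, limma). Pemt, which makes phosphatidylcholine with S-adenosylmethionine and is named for the same reason, rose by 4.26 from Day -2 to Day 0 (adjusted p = 1.06e-15).

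Of the 14 serine and glycine genes tested, 7 were higher and 2 lower before weaning than after, and 6 and 7 with the upper quartile scaling, beside the shares of all genes given above. The largest differences were those of Srr, serine racemase, at -1.43, Agxt, alanine-glyoxylate aminotransferase, at 1.31, and Gatm, which begins creatine synthesis, at 1.06. Across weaning itself Agxt fell by 0.98 on the log2 scale and Shmt1, a serine hydroxymethyltransferase, fell by 0.41, while Gcat rose by 0.58. Of the 16 methyl cycle genes, 5 were higher and 4 lower before weaning, and 2 and 10 with that scaling, beside the same shares of all genes. Nnmt, which methylates nicotinamide with S-adenosylmethionine, stood out at -4.84 ± 0.16 (SE; adjusted p = 9.15e-21, limma), followed by Ahcy, which removes S-adenosylhomocysteine, at -1.26 and Aldh7a1 at -0.91. Nnmt was also the 1 gene of this list called across weaning, where 7.19% of all genes were called. It rose by 1.24 ± 0.36 (SE, adjusted p = 0.0309, limma).

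Of the 11 genes of transsulfuration, cysteine and sulfide, 2 were higher and 6 lower before weaning, where 68.1% and 11.7% of all genes were. With that scaling they were 1 and 8, where 45.3% and 25.8% of all genes were. Ethe1, which oxidizes sulfur from sulfide, was at -1.82, Suox, sulfite oxidase, at -0.95 and Sqrdl, which oxidizes sulfide, at -0.87. Across weaning Ethe1 rose by 1.94 ± 0.18 (SE; adjusted p = 5.9e-09, limma), and Csad, a taurine synthesis enzyme, by 1.66, whereas Cdo1, cysteine dioxygenase, fell by 1.06 on the log2 scale. Of 11 folate one-carbon genes, 7 were higher and 2 lower before weaning (4 and 5 with that scaling, against 68.1% and 11.7%, and 45.3% and 25.8%, of all genes). Mthfd1l was at 1.74, Tyms, thymidylate synthase, at 1.17 and Aldh1l1 at -1.14. None of these 11 was called across weaning in the limma fit, where 7.19% of all genes were called.

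Of 10 polyamine and methionine salvage genes, 8 were higher and 0 lower before weaning (4 and 3 with that scaling), near the 68.1% of all genes that were higher, led by Enoph1 at 1.04, Odc1, ornithine decarboxylase, at 0.67 and Sat1 at 0.64, and Odc1 rose across weaning by 1.11 ± 0.18 (SE; adjusted p = 6.26e-05, limma). Of 10 genes listed as the transcription factor Atf4 and genes it is known to induce, 8 were higher and 1 lower before weaning (6 and 2 with that scaling), where 68.1% of all genes were higher and 11.7% lower: Asns, asparagine synthetase, led at 2.299, followed by Aldh18a1 at 1.58 and Atf5 at 1.07. Across weaning Chac1 and Trib3 of that list differed by -1.32 and -0.64 (adjusted p = 0.00172 and 0.00919, limma).

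**Figure D5:**
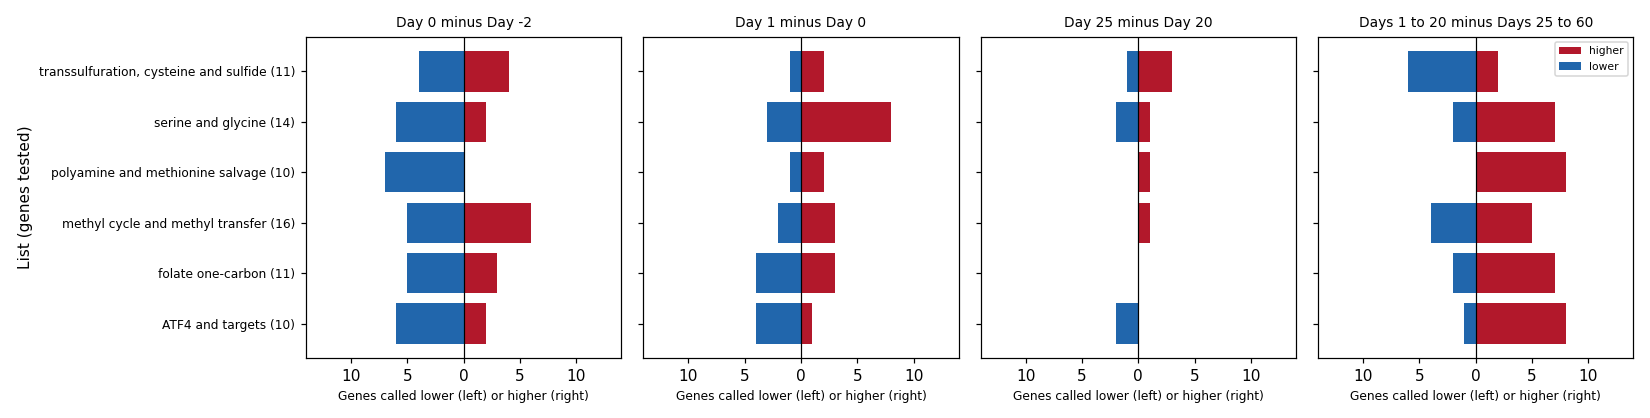
Number of genes called lower (left, blue) or higher (right, red) at an adjusted p under 0.05 by limma on each of 6 lists of other pathway genes, for 4 comparisons; the number tested stands beside each list name. Falls outnumber rises on the polyamine list from Day -2 to Day 0 (7 against 0, and 4 against 2 with the upper quartile scaling), where 41.4% of all genes fell and 13.1% rose. From Day 20 to Day 25, 6 of the 72 genes tested rose and 5 fell, where 3.94% of all genes rose and 3.26% fell. On the transsulfuration list of 11, 3 rose and 1 fell at that step.

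The course of each gene over age was set beside that of every gene tested, by Pearson's r over 12 age means, as a description with no test. Phgdh and Psat1 had r = 0.984 with each other. For Psat1 the nearest genes were Pdk3 (r = 0.996), Traf7 (0.995) and 2810432L12Rik (0.995), and for Phgdh they were Gm1821 (0.995), Hk1 (0.994), a hexokinase, and Isca1 (0.993). Mat2a was nearest to Rrp8 (0.979), Eef2 (0.977), a translation elongation factor, and Gltscr2 (0.974). Mat1a was nearest to Slc6a12 (0.979), a betaine transporter, Iigp1 (0.969) and Plg (0.965), plasminogen. Gnmt had Aspg (0.990), Ms4a4d (0.984) and C4b (0.981) nearest, and Bhmt had Ctso (0.977), Amacr (0.974) and Acad11 (0.970). Cbs was nearest to Dcaf11 (0.989), Slc25a23 (0.986) and 9030617O03Rik (0.982), and Cth to Fmo5 (0.990), BC026782 (0.982) and Fam82a1 (0.980). Sds was nearest to Gls2 (0.967), a glutaminase, Pdk2 (0.963) and Xdh (0.963), and Sdsl to 1810014F10Rik (0.936), 0610007C21Rik (0.917) and Wfdc2 (0.911). The age means share their libraries and the broad change of the liver at birth. When r was taken over the 36 libraries, 8 of these 30 neighbours were kept.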

How the data were processed

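The 36 libraries were made from polyadenylated RNA, and per the labels the authors deposited FPKM values from TopHat (1.2.0), the mm9 build and Cufflinks (1.0.3), 1 table of 21889 gene symbols, with the Ensembl annotation named in the study. The study's methods name no further scaling of the libraries, and no counts were used here. Groups are the 12 ages of the labels, with 3 mice each; p-values measure the spread between these mice. The fit was limma 3.58.1 in R 4.3.3 with a mean-variance trend on log2(FPKM + 1), a fold change that understates low genes, with 1 mean per age, over genes whose mean reached 1 FPKM at some age; p was adjusted over all genes within a comparison. Calls use an adjusted p under 0.05. The fit was tested on simulated data. Alternatives were a pseudocount of 0.1, filters of 0 and 5 FPKM, upper quartile and 1000000-sum scaling, no trend, a replicate block, Dunnett's comparison and each library left out. The genes, lists and tests were chosen with earlier results of these data known.

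Named genes were all 10, up to 3 called genes per pathway list with the largest difference before against after weaning and across weaning, and the 3 nearest in age pattern; Psph and Pemt were added after their values were seen. The study states an average number of reads per sample and the share mapped. The depth of each library was only estimated here, from steps between low values, and intervals of counting error were not computed. Positions are from GENCODE M1 (mm9) and promoters from RefSeq (GRCm38.p6).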

Additional observations from a re-analysis of the deposited data

How the results depend on the processing

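Over all alternatives, 2918 of 3046 recomputed results were classed as the same. For a test this meant the same direction and the same side of the threshold. For a count of genes it meant staying within a set ratio of the main count, so such counts could differ. For the ratio of Mat1a to Mat2a it meant a shift smaller than the combined SD of both ages. The log2 ratio of Mat1a to Mat2a rose by 5.11 from Day -2 to Day 60, and by 4.74 to 5.31 when single libraries were left out. Leaving out 1 library gave 4 to 8 called genes of the set from Day -2 to Day 0 (5 with all), 3 to 7 from Day 0 to Day 1 (6 with all) and 6 to 12 other pathway genes across weaning (11 with all). The lowest count from Day 0 to Day 1, 3, came without Day 0 replicates 2 or 3 or Day 1 replicates 1 or 3; the 8 came without Day 30 replicate 1 or Day 60 replicate 1, and the 6 without Day 25 replicate 2. An alternative chosen after seeing the data left out the 5 libraries with over 5000 FPKM of exocrine pancreas markers. It called 3 genes of the set and 22 other pathway genes from Day 0 to Day 1, and the share of all genes was not computed. Of the 30 nearest genes, 8 were kept over 36 libraries. The cause of these shifts was not tested.

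Signs changed for Bhmt before against after weaning (-0.11 with the upper quartile) and for values near 0 across weaning: Psat1 gave 0.0017 with a pseudocount of 0.1, 0.0215 with the upper quartile, 0.0167 with the 1000000 sum and 0.0025 without the pancreas-rich libraries, and Bhmt gave 0.0145 without them. With single libraries left out, Psat1 ranged from -0.15 to 0.16, Bhmt from -0.17 to 0.0488 and Gnmt from -0.36 to 0.10. From Day 10 to Day 15 between 1 and 5 genes of the set were called over the alternatives.

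The mice of different ages are different animals, and replicate numbers were not taken to pair them: deviations of same-numbered libraries had a median correlation of 0.126, from -0.68 to 0.829 over 198 pairs, against a median of -0.048 for other numbers. A fit with a replicate block called 6 genes of the set from Day -2 to Day 0, 7 from Day 0 to Day 1, 0 across weaning and 9 before against after weaning. Shares of all genes were not computed for that fit. Depth limits the late Phgdh values, with an estimated 4.87 to 156 fragments per library at Day 60.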
